A study of Rattus norvegicus with 58 samples.

Results

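The 7 genes described here are proliferation genes, whose transcripts are carried by cells that are copying their DNA or dividing: Mki67, Top2a, Cdk1, Ccna2, Ccnb1, Pcna and Birc5. They were chosen by name for their known roles, with earlier results of these data known. All 7 were found by identifier among the 16879 genes of the deposited table. The table holds Ensembl gene identifiers alone, so the pairing of name and identifier came with the choice of the set and could not be checked against the reference used here. In the order above, the identifiers were ENSRNOG00000028137, ENSRNOG00000053047, ENSRNOG00000000632, ENSRNOG00000015423, ENSRNOG00000058539, ENSRNOG00000021264 and ENSRNOG00000050819.

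RNA was taken from synovial tissue, the soft lining of the joint, and sequenced in 58 libraries of 10 groups. Pristane is an oil that provokes a chronic inflammatory arthritis in rats. Female DA/OlaHsd rats aged 6 to 8 weeks were injected with 250 µl of pristane, and treatment began the day after each rear limb had scored at least 3, which was counted as time 0. The strain, sex and age of the naive and healthy rats are not given apart from that protocol. Pristane-induced arthritis (PIA) was sampled in an untreated group (4 libraries) and after subcutaneous saline for 1 day (4), 3 days (8) or 5 days (8). Other arthritic rats received 5 mg/kg RTD-1 in saline for 1 day (4), 3 days (8) or 5 days (8). RTD-1, a theta-defensin of the rhesus macaque, is a cyclic antimicrobial peptide. The remaining groups were naive rats (4) and rats without arthritis, labelled healthy, that had 3 days (5) or 5 days (5) of RTD-1, also at 5 mg/kg. A healthy group given saline was not analysed here. Whole joint lining holds fibroblasts, leukocytes, vessels and fat, so that in these bulk libraries more dividing cells and more RNA per cell cannot be told apart.

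Cells that divide pass through DNA synthesis and mitosis, and each step needs its own proteins. Pcna encodes the sliding clamp that holds DNA polymerase on its template and also serves DNA repair, and Top2a encodes the topoisomerase that untangles newly copied chromosomes. Ccna2 and Ccnb1 encode cyclins A2 and B1, which can switch on the kinase encoded by Cdk1 before and at the entry into mitosis. Mki67 encodes Ki-67, which coats mitotic chromosomes and is the usual histological marker of cycling cells, and Birc5 encodes survivin, a member of the chromosomal passenger complex that guides chromosome attachment. In normal synovium few cells divide, whereas in inflammatory arthritis the lining thickens and infiltrating and resident cells can proliferate.

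Many genes of late S phase and mitosis are known to be controlled through a cell cycle homology region (CHR) with CCAAT boxes beside it, whereas genes of DNA synthesis are known for E2F sites. The promoters of 5 of the genes are shown as examples of how these letters differ between members. A relation between the letters and the change with disease was not tested. Each is 300 bases of RefSeq sequence, GRCr8 build, from 250 bases before the transcription start to 50 after it, written 5′ to 3′ on the strand of the gene. Capitals mark matches on either strand. The CHR was searched as TTTGAA and in a variant form with the letters TTCGAA. Other variants of the CHR were not searched, so a window without these letters cannot be said to lack a CHR. The CCAAT box was searched by the letters of its name, and an E2F-like site as any of TTTGGCGC, TTTCGCGC, TTTCCCGC and TTTGGCGG.
Mki67, chr1:199952544-199952843, minus strand: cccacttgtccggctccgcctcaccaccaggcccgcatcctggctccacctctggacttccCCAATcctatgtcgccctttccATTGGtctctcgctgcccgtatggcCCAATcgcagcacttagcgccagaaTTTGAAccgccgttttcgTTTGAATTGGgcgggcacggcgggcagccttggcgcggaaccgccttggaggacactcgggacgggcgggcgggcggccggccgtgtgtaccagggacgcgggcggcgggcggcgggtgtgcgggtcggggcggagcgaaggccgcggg
Top2a, chr10:84473044-84473343, minus strand: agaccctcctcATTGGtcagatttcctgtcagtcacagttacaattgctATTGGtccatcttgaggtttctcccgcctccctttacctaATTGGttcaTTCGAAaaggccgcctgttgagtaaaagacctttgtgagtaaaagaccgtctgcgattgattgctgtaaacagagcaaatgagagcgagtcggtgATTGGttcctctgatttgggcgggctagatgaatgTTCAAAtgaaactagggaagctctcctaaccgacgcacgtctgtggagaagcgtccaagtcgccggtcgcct
Cdk1, chr20:19265043-19265342, plus strand: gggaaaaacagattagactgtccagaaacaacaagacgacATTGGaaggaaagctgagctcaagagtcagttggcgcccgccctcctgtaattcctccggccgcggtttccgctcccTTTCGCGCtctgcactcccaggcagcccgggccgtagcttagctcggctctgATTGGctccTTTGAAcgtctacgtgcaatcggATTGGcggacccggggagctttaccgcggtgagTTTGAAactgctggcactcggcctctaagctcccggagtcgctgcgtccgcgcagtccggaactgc
Ccnb1, chr2:33655176-33655475, minus strand: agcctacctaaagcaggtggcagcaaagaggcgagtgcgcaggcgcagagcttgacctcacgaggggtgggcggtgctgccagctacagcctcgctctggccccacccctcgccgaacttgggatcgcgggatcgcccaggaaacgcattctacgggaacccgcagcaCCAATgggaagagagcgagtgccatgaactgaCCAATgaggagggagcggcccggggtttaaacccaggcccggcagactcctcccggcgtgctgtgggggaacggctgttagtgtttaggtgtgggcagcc
Pcna, chr3:139955771-139956070, minus strand: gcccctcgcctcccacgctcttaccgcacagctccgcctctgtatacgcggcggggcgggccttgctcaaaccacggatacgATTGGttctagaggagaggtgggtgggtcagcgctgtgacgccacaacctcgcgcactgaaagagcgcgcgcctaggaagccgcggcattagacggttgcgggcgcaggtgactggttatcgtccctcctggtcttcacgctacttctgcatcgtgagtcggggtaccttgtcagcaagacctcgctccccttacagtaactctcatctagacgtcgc
The promoter table held 6 of the 7 genes, without Ccna2. CHR letters stood in 4 of the 6 windows, those of Mki67, Top2a, Cdk1 and Birc5, and in 19.74% of all 33469 promoters of that length. CCAAT stood in all 6 windows and in 37.49% of all promoters. The E2F-like letters stood in 1 window, that of Cdk1, and in 2.175% of all promoters. Mki67, Top2a and Cdk1 each held 2 CHR matches, and the second of Mki67 shares a base with a reverse CCAAT box. A match is a description of the letters and not evidence of binding.

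Reads that fell in genes ranged from 464693 to 7716834 per library. All 10 healthy RTD-1 libraries were deeper (4437281 reads or more) than all 4 naive libraries (2396818 or fewer) and all 4 untreated PIA libraries (2536140 or fewer). The shallowest library was replicate 6 of the 3-day RTD-1 group. In the saline arm, 3 libraries (day 1 replicate 2, day 3 replicate 4 and day 5 replicate 1) stand apart from the other arthritic libraries, and leaving these 3 out left the count of called members as it was in every comparison that involves them. Values below are normalized reads, that is, reads brought to 1 common depth, that of the library with the median scaling factor. They are not divided by transcript length and are compared between libraries and not between genes. Log2 differences were fitted with limma on log2(normalized reads + 1) and are therefore understated for genes with few reads. A gene was called where the Benjamini-Hochberg adjusted p over all 13062 genes tested was under 0.05. The labels do not tie libraries to animals, so p-values measure the spread between libraries. All 7 members passed the filter on low values, which asked for 10 or more normalized reads in 4 or more libraries. Mki67, Top2a and Pcna reached 10 in all 58 libraries, whereas Cdk1, Ccnb1 and Birc5 reached it in 0 of the naive libraries and Ccna2 in 1, so these 4 passed through their arthritic libraries. Their higher values against naive or healthy libraries are therefore not independent of the filter.

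Untreated arthritic synovium held more transcript of all 7 genes than naive synovium. The increases were 6.45-fold to 17.5-fold for 6 members and 2.53-fold for Pcna (4 against 4 libraries). Across all tested genes, 27.8% were called higher and the median log2 difference was 0.28, beside a median of 3.64 over the 7 members. For 6 of the 7 members, every PIA library lay above every naive library, which held for 22.3% of all genes. Cdk1, Ccna2, Ccnb1 and Birc5 are among these 6 and had passed the filter through their arthritic libraries. Pcna was the member whose groups overlapped.

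Mki67, the marker of cycling cells, had 110.2, 40.3, 89.8 and 65.6 normalized reads in naive replicates 1 to 4, and 706.8, 1072.6, 395.6 and 2205.9 in PIA replicates 1 to 4. The lowest PIA library was replicate 3 and the highest replicate 4, and the groups were well apart. The fitted log2 difference was 3.64 ± 0.350 (SE), a 12.4-fold increase (95% interval 7.64 to 20.2), with a limma adjusted p of 6.65e-12. Top2a had 34.7, 31.7, 25.9 and 38.5 normalized reads in naive libraries and 418.2, 566.6, 213.9 and 840.2 in PIA libraries. Its naive values varied little, and the difference was 3.77 ± 0.425 on the log2 scale (limma adjusted p = 5.74e-10).

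Among the genes of mitotic entry, Ccnb1 had 0.889, 3.84, 5.99 and 3.12 normalized reads in naive libraries, from 14 reads in all, and 57.5, 81.5, 37.9 and 129.5 in PIA libraries. Its rise of 4.13 ± 0.506 log2 units (17.5-fold, 95% interval 8.66 to 35.2) had the highest estimate of the 7 members, with a limma adjusted p of 1.97e-09. Cdk1, its kinase partner, had 8.89, 4.80, 2.99 and 3.12 normalized reads in naive libraries and 67.6, 92.4, 37.9 and 112.2 in PIA libraries. No naive library of Cdk1 came near the PIA range, and the log2 difference was 3.72 ± 0.548 (limma adjusted p = 1.75e-07). Ccna2 had 6.22, 9.61, 7.98 and 16.7 normalized reads in naive libraries and 63.1, 76.5, 27.9 and 145.8 in PIA libraries. Its groups were closest at naive replicate 4 and PIA replicate 3, and the log2 difference was 2.69 ± 0.486 (limma adjusted p = 1.05e-05).

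Birc5, the survivin gene, had 0, 2.88, 2.99 and 0 normalized reads in naive libraries, from 6 reads in all, and 19.2, 40.8, 5.57 and 50.8 in PIA libraries. The log2 difference was 3.54 ± 0.532 (limma adjusted p = 2.44e-07), and the naive level rests on so few reads that its fold is imprecise. Pcna, the replication clamp, had 64.9, 31.7, 117.7 and 56.2 normalized reads in naive libraries and 188.3, 166.0, 107.0 and 173.6 in PIA libraries. Naive replicate 3 lay above PIA replicate 3, and the log2 difference was 1.34 ± 0.388 (limma adjusted p = 0.00486). PIA replicate 3 was the lowest PIA library for all 7 members and replicate 4 the highest for 6. Without PIA replicate 4 all 7 members were still called higher, with log2 differences from 1.28 to 3.83.

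**Figure D1:**
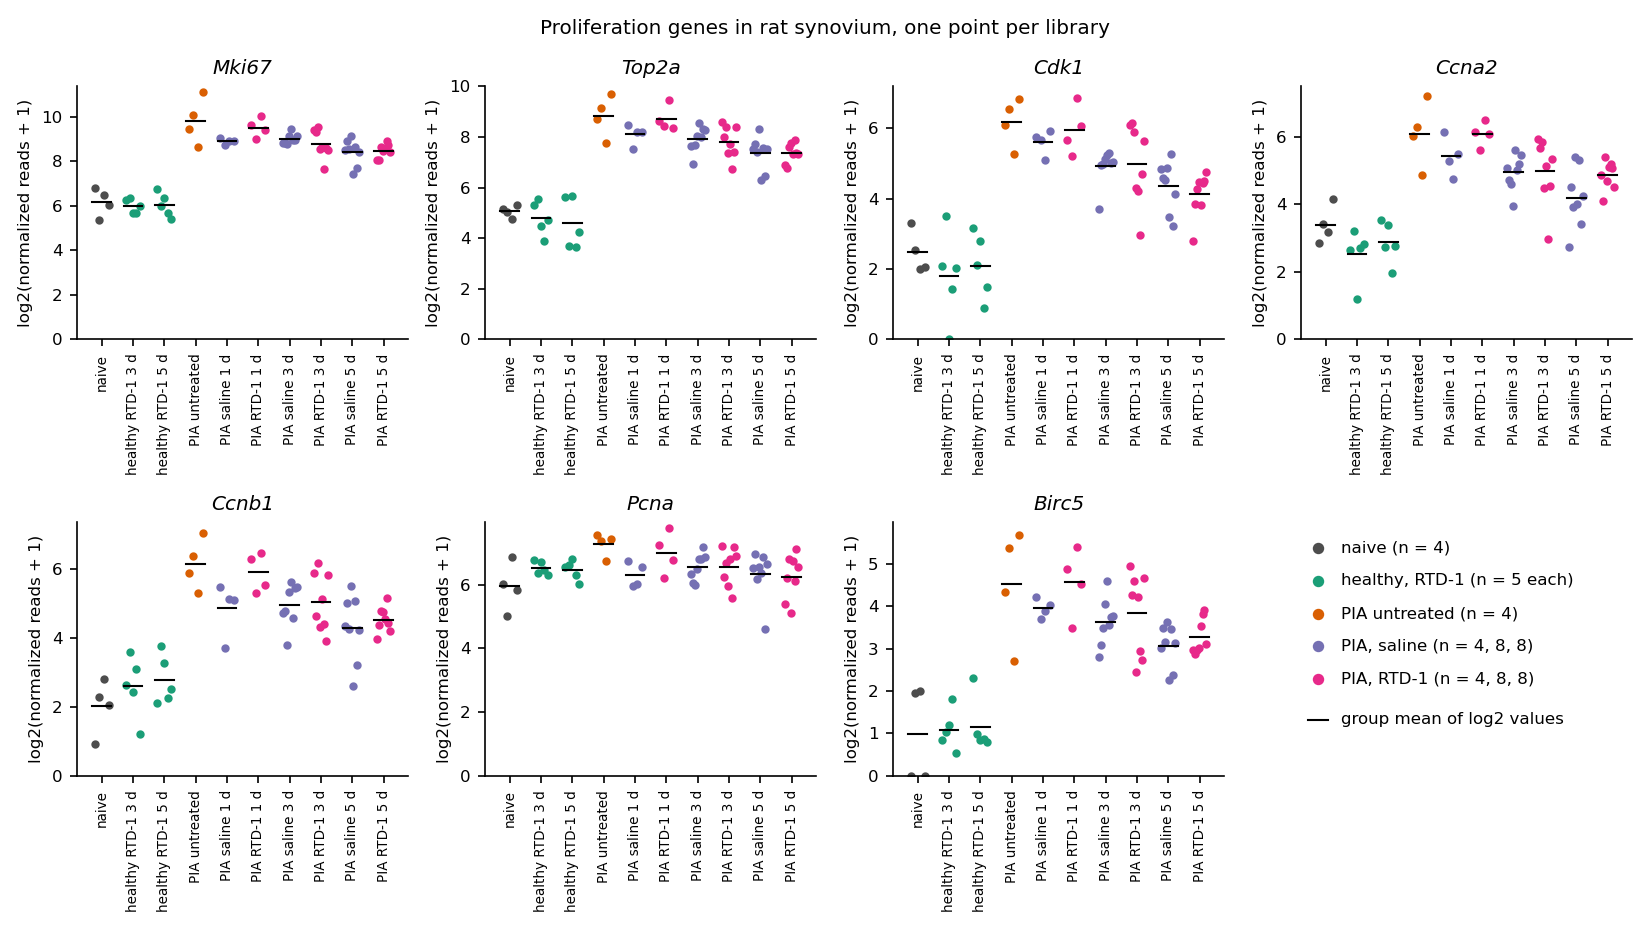
Level of each of the 7 genes (vertical axes, log2(normalized reads + 1), starting at 0) in every library of the 10 groups, with 1 point per library and a bar at the group mean of log2 values. Mki67 and Top2a were higher in all 44 arthritic libraries than in all 14 naive and healthy libraries, whereas Pcna overlapped between them. The share of all genes separated in this way was not counted.

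The comparison of arthritic with healthy rats that had both received RTD-1 asks the same question within treated animals. At day 3, 6 of the 7 members were higher in arthritic synovium (16.8% of all genes were called higher), and at day 5 the count was again 6 of 7 (10.7% of all genes). The median over the 7 members was 2.77 log2 units at day 3 and 2.04 at day 5, beside -0.20 and -0.32 over all genes. The exception on both days was Pcna. These groups also differed in depth, and the part of depth in the result was not tested.

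Mki67 had 76.2, 81.7, 49.7, 50.3 and 62.6 normalized reads in healthy rats after 3 days of RTD-1. In the 8 arthritic libraries of that day it ran from 201.9 through a median of 391.7 to 757.9, with no overlap. The log2 difference was 2.79 ± 0.282 at day 3 (limma adjusted p = 7.67e-12) and 2.45 ± 0.282 at day 5 (limma adjusted p = 7.07e-10). Top2a differed by 3.03 ± 0.343 and 2.79 ± 0.343 log2 units, also without overlap on either day. Cdk1 differed by 3.19 at day 3 and 2.04 at day 5, Ccna2 by 2.47 and 1.99, Ccnb1 by 2.44 and 1.74, and Birc5 by 2.77 and 2.11. All of these were called by limma (highest adjusted p = 0.000436, Ccnb1 at day 5), and every arthritic library lay above every healthy one for 4 members at day 3 (8.50% of all genes) and 5 at day 5 (5.26%). Of the called members, Cdk1, Ccna2, Ccnb1 and Birc5 had passed the filter through their arthritic libraries. The overlaps, Pcna apart, were Cdk1 on both days and Ccna2 at day 3.

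Pcna had 109.9, 81.7, 104.5, 88.1 and 77.9 normalized reads in healthy rats after 3 days of RTD-1, and 47.1 to 147.8 with a median of 107.3 in the 8 arthritic libraries. The arthritic libraries lay on both sides of the healthy ones. The log2 difference was 0.04 (95% interval -0.58 to 0.67) at day 3, with a limma adjusted p of 0.922. At day 5 it was -0.21 (95% interval -0.83 to 0.42), with a limma adjusted p of 0.616, and its sign changed to 0.07 with TMM scaling.

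Whether Pcna changed less than the other members was tested library by library, as the difference of log2 values between Pcna and each other member. All 21 pairs of members were tested in each of 3 comparisons, after the values had been seen, by two-sided exact permutation tests adjusted over the 21 pairs. At day 3 all 6 pairs with Pcna passed, with the other member ahead by 2.39 to 3.15 log2 units (8 arthritic and 5 healthy libraries, exact permutation, adjusted p from 0.00653 to 0.0109). At day 5 all 6 passed again, by 1.95 to 3.00 log2 units (exact permutation, adjusted p = 0.00544 for each). On each day the 6 pairs share the Pcna values and the same libraries, so they are not independent of each other. Of the 15 pairs without Pcna, 0 passed at day 3 and 2 at day 5, where Top2a was ahead of Cdk1 by 0.75 and of Ccna2 by 0.80 (exact permutation, adjusted p = 0.0449 and 0.0373). In untreated PIA against naive Pcna again had the lowest estimate, behind by 1.35 to 2.79 log2 units. There 0 of the 21 pairs passed, with a lowest exact permutation p of 0.0286 (0.1 when adjusted), which is the smallest that 4 against 4 libraries allow.

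Between healthy rats given RTD-1 and naive rats none of the 7 genes passed the test. On day 3 and on day 5, 0 of the 7 members were called by limma (11.8% and 13.5% of all genes were). By unadjusted p under 0.05 the count was also 0 on both days, beside 26.9% and 28.8% of all genes. Cdk1, Ccna2, Ccnb1 and Birc5 reached 10 normalized reads in only 0, 1, 0 and 0 naive libraries and 1, 1, 2 and 0 healthy ones. With so few reads, a fall or a modest rise would be hard to call. Large rises of the same genes were called in untreated PIA against naive. The part of low reads in the result was not tested, and 0 of 7 is not on a par with the shares of all genes. The log2 differences ran from -0.88 (Ccna2) to 0.58 (Pcna) at day 3 and from -0.52 (Ccna2) to 0.76 (Ccnb1) at day 5. When only the groups compared were fitted, the members that passed the filter ran from -0.27 to 0.58 at day 3. At day 5 they ran from -0.48 to 0.52. The interval for Mki67 at day 5, -0.81 to 0.52 log2 units, leaves room for a change of moderate size.

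**Figure D2:**
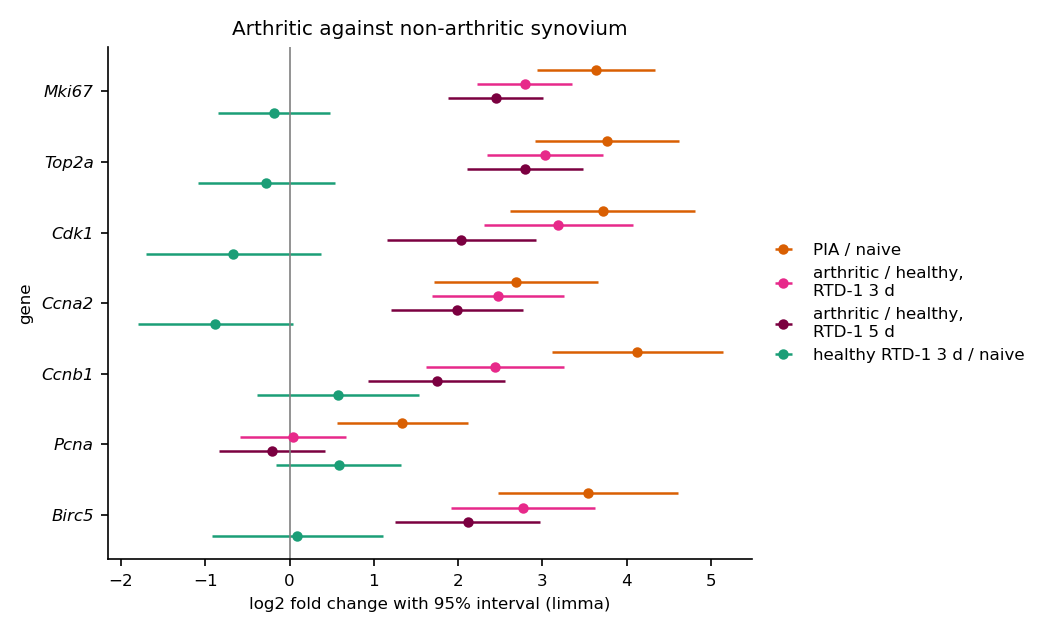
Log2 fold change (horizontal axis, points with 95% intervals from limma) of each gene for untreated PIA against naive, for arthritic against healthy rats under RTD-1 at days 3 and 5, and for healthy rats after 3 days of RTD-1 against naive. Pcna lies at 1.34 in untreated PIA and at 0.04 and -0.21 under RTD-1, to the left of the other 6 members in all 3 arthritic comparisons.

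Within the arthritic groups most of the 7 transcripts were lower by day 5 than in untreated PIA. Untreated PIA had the highest group mean for all 7 members and 1-day RTD-1 the next highest. After 3 days, 0 of the 7 members were called against untreated PIA, either with saline (0.0153% of all genes called) or with RTD-1 (0.00766%). All 14 estimates were below 0, and the medians over all genes were -0.14 with saline and -0.17 with RTD-1. By unadjusted p under 0.05, limma gave 6 members in each arm, beside 14.7% of all genes with saline and 8.70% with RTD-1. After 5 days of saline, 6 of 7 were lower (7.09% of all genes were called lower), and after 5 days of RTD-1 also 6 of 7 (11.3%). The member that missed was Pcna with saline (limma adjusted p = 0.0652) and Birc5 with RTD-1 (limma adjusted p = 0.0581). The comparisons of both days and both arms use the same 4 PIA libraries and are not independent of each other.

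Mki67 ran from 173.9 through a median of 370.4 to 569.4 normalized reads in the 8 libraries of 5-day saline, and from 267.4 through 366.3 to 479.2 in those of 5-day RTD-1. PIA replicate 3, at 395.6, lay inside both ranges and the other PIA libraries above them. The log2 differences from untreated PIA were -1.40 ± 0.303 with saline (limma adjusted p = 0.00415) and -1.34 ± 0.303 with RTD-1 (limma adjusted p = 0.00421). Cdk1 ran from 8.30 through 22.5 to 37.3 normalized reads in 5-day saline libraries and from 5.98 through 19.7 to 26.1 in 5-day RTD-1 libraries, all below the lowest PIA library at 37.9. The shares of all genes with such a separation are not given here. The log2 differences of Cdk1 were -1.82 ± 0.475 (limma adjusted p = 0.0133) and -2.07 ± 0.475 (limma adjusted p = 0.00423). Ccna2 fell by 1.90 log2 units with saline and by 1.22 with RTD-1, and Ccnb1 by 1.87 and 1.62. Top2a differed by -1.48 with saline and -1.46 with RTD-1, both called. Birc5 fell by 1.47 with saline and had an estimate of -1.26 with RTD-1. Pcna had an estimate of -0.94 with saline and fell by 1.03 with RTD-1.

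**Figure D3:**
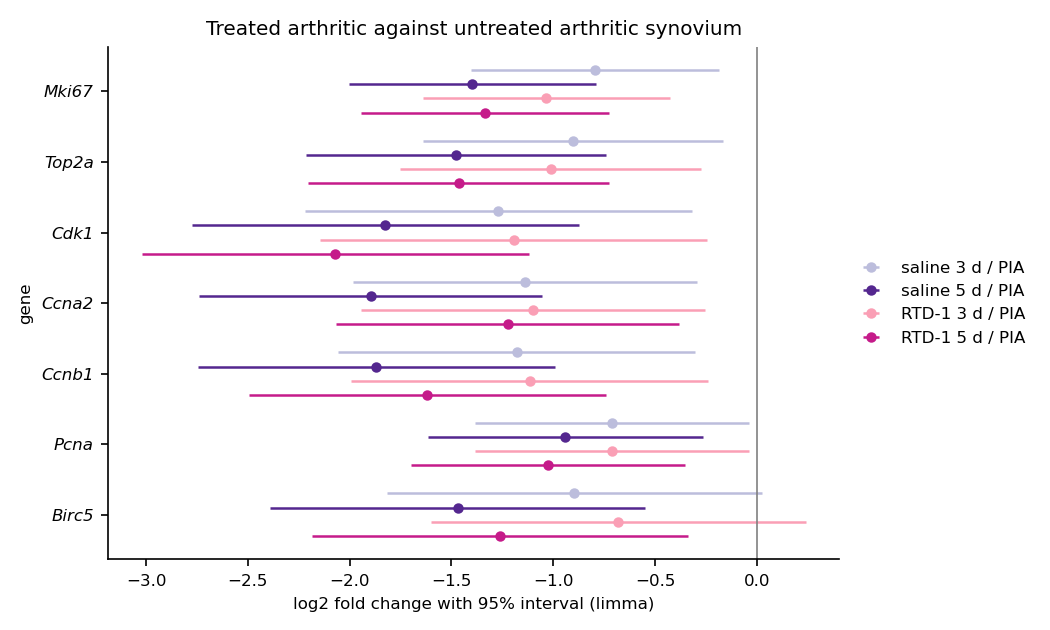
Log2 fold change (horizontal axis, points with 95% intervals from limma) of each gene against untreated PIA after 3 and 5 days of saline or RTD-1. All estimates lie below 0, and those of day 5 lie further from 0 than those of day 3 for every gene in both arms.

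These falls rest on the 4 untreated PIA libraries. Without PIA replicate 4, the highest, 0 members were called at day 5 with saline and 1 with RTD-1 (Cdk1), with estimates from -1.61 to -0.89 and from -1.86 to -0.85. Without PIA replicate 2, 3 were called in each arm. When only the groups compared were fitted, 1 was called with saline. With TMM scaling 4 were called with RTD-1, without Ccna2 (limma adjusted p = 0.0990) and Pcna (limma adjusted p = 0.0609). At day 3, leaving out PIA replicate 3 brought 1 member past the threshold with RTD-1. With replicates 1 to 4 of every group, 1 member was called with saline and 7 with RTD-1, and with replicates 5 to 8 of the 3-day and 5-day groups, 7 with saline and 2 with RTD-1. Here and below, counts under alternatives come without the shares of all genes. A shift in them cannot be read as particular to the members.

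From day 1 to day 5, 6 of the 7 members were lower in RTD-1 libraries (17.5% of all genes were called lower) and 0 in saline libraries (3.57%). Mki67 differed by -1.03 ± 0.303 log2 units (limma adjusted p = 0.0133), Top2a by -1.35 ± 0.368 (limma adjusted p = 0.00842) and Cdk1 by -1.83 ± 0.475 (limma adjusted p = 0.00557) in the RTD-1 arm. In the saline arm the same genes had estimates of -0.49, -0.76 and -1.25, and 3 members had an unadjusted limma p under 0.05 (23.2% of all genes did). The arms were not compared in their change from day 1 to day 5; the RTD-1 effects of neighbouring days are compared below. RTD-1 day 1 replicate 3 was the highest library of its group for all 7 members, and without it 0 members were called from day 1 to day 5. Without replicate 1 of that group, 3 were called. With TMM scaling 3 were called, and with replicates 5 to 8 of the day 5 group 0. Without day 5 saline replicate 4 or replicate 6, 1 member was called in the saline arm.

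At day 5 most of the 7 members were still above naive synovium. With saline 5 of the 7 members were higher than naive (16.5% of all genes were called higher), and with RTD-1 6 of 7 (14.5%). In the RTD-1 arm limma voom called 4, without Cdk1 (adjusted p = 0.117) and Ccna2 (adjusted p = 0.0595), and replicates 1 to 4 gave 5, without Cdk1 (limma adjusted p = 0.0692). Mki67 was 4.72-fold (95% interval 3.10 to 7.19) and 4.93-fold (3.23 to 7.51) above naive, and Top2a 4.90-fold and 4.94-fold, each with every day 5 library above every naive one. The shares of all genes with such a separation are not given here, so it is not read as particular to these genes. Pcna was not called in either arm, with log2 estimates of 0.40 (limma adjusted p = 0.426) and 0.31 (limma adjusted p = 0.562), and Ccna2 was not called with saline, at 0.79 (limma adjusted p = 0.164). Both comparisons use the same 4 naive libraries.

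The direct question of whether RTD-1 changed these transcripts is addressed by RTD-1 against saline on the same day. On days 1, 3 and 5, 0 of the 7 members were called by limma, beside 0%, 0.00766% and 0% of all genes. By unadjusted p under 0.05, limma gave 1 member on day 1, 0 on day 3 and 0 on day 5, beside 4.69%, 7.73% and 3.60% of all genes. The 1 member was Ccnb1, with a limma adjusted p of 0.912.

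On day 1 Mki67 had 528.9, 483.4, 485.6 and 423.3 normalized reads in saline libraries and 798.3, 509.7, 1052.5 and 670.8 in RTD-1 libraries. RTD-1 replicate 2 lay below saline replicate 1, so the groups overlapped. The log2 difference was 0.61 (95% interval -0.09 to 1.31). Ccnb1 had 42.9, 33.9, 33.1 and 12.1 normalized reads with saline and 77.1, 38.4, 87.2 and 45.4 with RTD-1, a log2 difference of 1.05 (95% interval 0.04 to 2.06). All 7 estimates were above 0 on day 1, from 0.34 to 1.05, beside a median of 0.16 over all genes. Without RTD-1 replicate 3 they ran from 0.04 to 0.86.

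On day 3 Mki67 ran from 445.9 through a median of 497.7 to 710.4 normalized reads with saline and from 201.9 through 391.7 to 757.9 with RTD-1. The RTD-1 libraries were the more scattered, and the log2 difference was -0.24 (95% interval -0.73 to 0.26). On day 5 it was 0.06 (95% interval -0.43 to 0.56). For Top2a the log2 differences were 0.60, -0.11 and 0.01 on days 1, 3 and 5, and for Pcna the day 1 and day 5 values were 0.69 and -0.09. At day 5 the intervals of 5 members lay within 1 log2 unit of 0 on both sides, while that of Cdk1 reached down to -1.02. Ccna2 had the highest estimate at day 5, 0.67 (95% interval -0.02 to 1.36). The RTD-1 effect did not pass the test of a difference between days 1 and 3 or between days 3 and 5 for any of the 7 members (lowest limma adjusted p = 0.901 and 0.872). Across all genes 0.00766% and 0% were called, and by unadjusted p under 0.05 there were 0 members in both tests, beside 5.32% and 7.02% of all genes.

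**Figure D4:**
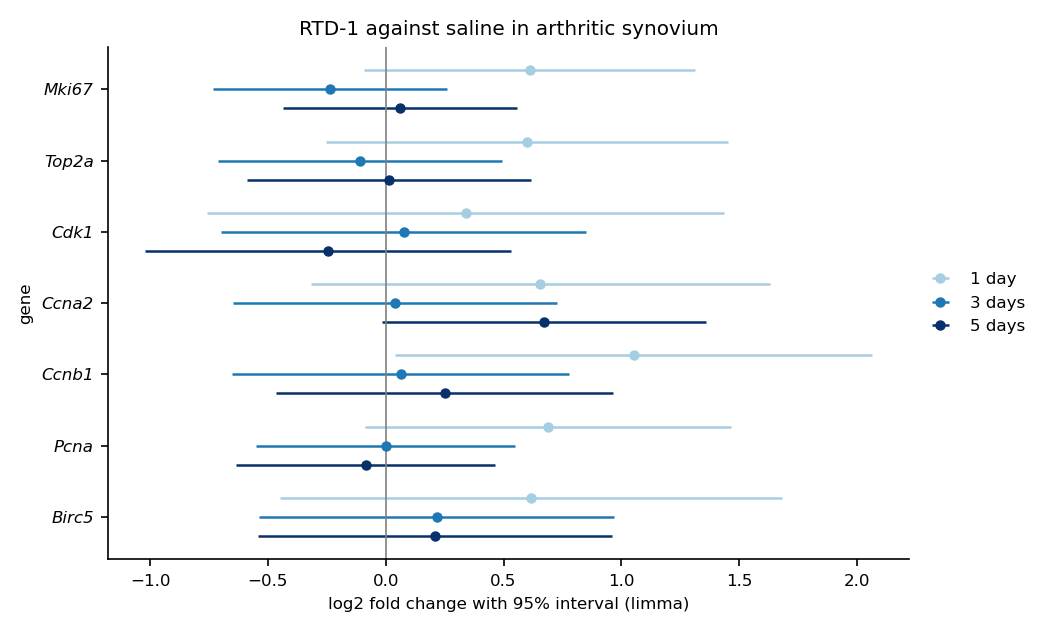
Log2 fold change of RTD-1 against saline (horizontal axis, points with 95% intervals from limma) for each gene after 1, 3 and 5 days. All 7 day 1 estimates lie above 0, from 0.34 to 1.05, and every interval except that of Ccnb1 on day 1 includes 0.

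The 3-day and 5-day arthritic groups hold replicates numbered 1 to 8, while the other groups end at 4 or 5, and the labels do not say whether the later numbers were processed apart. On day 3 all 7 RTD-1 effects were above 0 in replicates 1 to 4 (0.30 to 0.92 log2 units) and all 7 below 0 in replicates 5 to 8 (-0.82 to -0.28). On day 5 the signs were the other way round, with 6 of 7 below 0 in replicates 1 to 4 (-0.86 to 0.62) and all 7 above 0 in replicates 5 to 8 (0.37 to 0.81). The median over all genes changed sign in the same way. It was 0.16 in replicates 1 to 4 and -0.21 in replicates 5 to 8 on day 3, and -0.24 and 0.17 on day 5. The change of sign was therefore shared with the median over all genes. The medians over the 7 members were 0.58 and -0.73 on day 3 and -0.47 and 0.60 on day 5. They lay further from 0 than those over all genes, a difference that was not tested. None of these RTD-1 effects on members was called by limma (lowest adjusted p = 0.299), and the members vary together between libraries, so the 7 signs are not independent. The arthritic against healthy differences held in both sets, with 6 of 7 members called on each day.

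Libraries of the same arthritic group also varied, and the 7 genes varied together. Over the 44 arthritic libraries, with each log2 value taken as its deviation from the group mean, all 21 pairs correlated positively (Pearson r from 0.51 to 0.86, median 0.71). Mki67 and Top2a had r = 0.865 and Spearman rho = 0.832 (permutation within groups, p = 1e-05 for both, the smallest that 100000 permutations can give, and at most 1.91e-05 when adjusted over 21 pairs), and r = 0.847 without the 2 most extreme libraries. Within replicates 1 to 4 that r was 0.867 over 28 libraries, and within replicates 5 to 8 it was 0.862 over 16. Over all 44 libraries the 6 pairs with Pcna had r from 0.51 to 0.56 and the 15 pairs without it 0.59 to 0.86, a difference that was not tested. Within the replicate sets these ranges overlapped: 0.46 to 0.63 with Pcna and 0.44 to 0.88 without it in replicates 1 to 4, and 0.29 to 0.70 with Pcna and 0.58 to 0.87 without it in replicates 5 to 8. All 21 pairs passed the permutation test (highest adjusted p = 0.00088 for r and 0.00625 for rho). The libraries share a sequencing depth and a scaling factor across genes, and genes outside the set had a median correlation of 0.27 to 0.31 with the mean of 6 members.

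As a description of likeness, each member was ranked among 13056 genes, itself and all tested genes outside the set, by its correlation with the mean of the other 6 members over the 44 libraries. Top2a ranked 1 (r = 0.905) and Mki67 ranked 2 (r = 0.884), followed by Birc5 at 7, Ccnb1 at 39, Cdk1 at 46, Ccna2 at 74 and Pcna at 523 (r = 0.608). Outside the set, the genes most like the mean of all 7 were ENSRNOG00000013057 (r = 0.909) and ENSRNOG00000003388 (r = 0.884), given by identifier. They were 3.36 ± 0.397 and 3.33 ± 0.330 log2 units higher in untreated PIA than in naive synovium (limma adjusted p = 1.15e-09 and 1.08e-11).

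**Figure D5:**
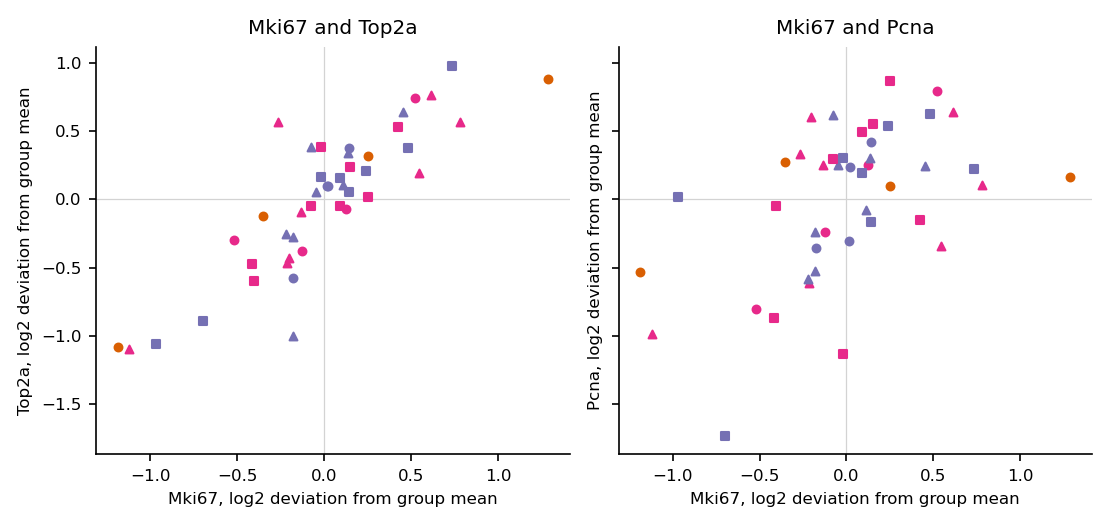
Deviation of log2 values from the group mean for Mki67 (horizontal axis) against Top2a and against Pcna (vertical axes) in the 44 arthritic libraries, in log2 units. Orange points are untreated PIA, purple saline and pink RTD-1, with circles for untreated and 1 day, triangles for 3 days and squares for 5 days. The points follow a narrower band for Top2a (r = 0.865) than for Pcna (r = 0.511).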

How the data were processed

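All 58 libraries are of synovial RNA, made with a strand-specific kit for total RNA and read as 75 nt single ends, per the labels' protocols. The submitters' processing notes name HISAT and DESeq without versions. For the genome build, the annotation and the handling of reads shared by near-identical genes, the sources used here give nothing. The deposited values are log2 of reads over a factor per library, with 0 reads held as 0.9, as the deposited values themselves show. Whole reads came back for 100% of values, within 0.001. The table had 16880 rows, and 1 row without an identifier, with at most 0.0137% of reads, was dropped.

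Reads were scaled to the median factor of 5.75 megareads. A gene entered the tests where 4 or more libraries had 10 or more normalized reads, as 13062 genes did. The model, limma 3.58.1 under R 4.3.3, was fitted to log2(normalized reads + 1) with 10 group means and trend and robust moderation. The values were taken for linear when the test was chosen, and the same test was run after undoing the logarithm. Pairs of members were compared by exact permutation, and correlations by 100000 permutations within groups (scipy 1.17.1). The fit was tested on simulated data. For RTD-1 against saline on days 1, 3 and 5, it recovered 34%, 50% and 60% of simulated 2-fold changes. For 1.5-fold changes the shares were 10%, 28% and 32%, so changes of that size would mostly be missed.

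The members, lists and comparisons were chosen with earlier results of these data known. The named genes are the 7 members and the 2 genes most like them. The reference tables paired 0 of the 16879 identifiers with a symbol, so lists of other cell cycle genes and of cell type markers were not analysed here, and the tissue label was not checked against markers. Same-numbered libraries did not pair: the correlations of their deviations ran from -0.21 (5-day RTD-1 with PIA) to 0.28 (5-day RTD-1 with 5-day saline, 3 of 8 pairs over 0.1), and no set of groups had every pair over 0.1, so no replicate block was used. The alternatives tried were other pseudocounts (0.5 and 8), filters (none, or 50 normalized reads), scaling (TMM) and tests (limma voom), a replicate block, a fit of only the groups compared, replicates 1 to 4 or 5 to 8, and leaving out each library or the 3 deeper saline libraries. Leaving out the 2 shallowest libraries was added after seeing the data.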

Additional observations from a re-analysis of the deposited data

Results flagged for a closer look

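In 70 combinations of a gene and a group, with 4, 5 or 8 libraries in each group, 4 held 1 library far from the rest of its group, and chance alone marks about 1 in 20. Cdk1 was lowest in replicate 1 of 3-day saline, at 11.93 normalized reads against 29.9 to 38.4 in the other libraries. Pcna was lowest in replicate 7 of 5-day saline, at 23.52 against 71.6 to 124.5. Ccna2 was lowest in replicate 3 of healthy 3-day RTD-1, at 1.295 against 5.21 to 8.28. Birc5 was highest in replicate 1 of healthy 5-day RTD-1, at 3.944 against 0.720 to 0.991, a range of a few reads.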

How the results depend on the processing

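Of 2994 alternative log2 differences of single members, 2886 kept their side of the threshold, 87 lost the call, 21 gained it and 0 called differences reversed. In 124, all uncalled, the sign changed. TMM scaling moved the median log2 difference over all genes in PIA against naive from 0.28 to 0.00, and the members then ran from 1.05 to 3.87. Leaving out single libraries gave counts of called members of 0 to 7 for 5-day saline against PIA, 1 to 7 for 5-day RTD-1 against PIA, 0 to 1 for 3-day RTD-1 against PIA, 0 to 1 for saline day 5 against day 1 and 0 to 7 for RTD-1 day 5 against day 1. It left every other count as it was, including 7 for PIA against naive. For 5-day saline against PIA, 1 member was called with only the groups compared and 1 with replicates 1 to 4. For RTD-1 against PIA with replicates 5 to 8, 1 was called at day 3 and 2 at day 5, and with TMM factors 4 at day 5. For saline day 5 against day 1, 1 was called with a pseudocount of 8, with TMM factors, with voom and with replicates 5 to 8. For RTD-1 day 5 against day 1, 3 were called with TMM factors and 0 with replicates 5 to 8. The replicate block called 2 members there, 5 in each 5-day arm against PIA and 7 for PIA against naive, and it changed no other count. A filter of 50 normalized reads removed Birc5. These counts are of members alone, without the shares of all genes, and the causes of these changes were not tested. Depth limits Birc5, Ccnb1 and Cdk1 most: the 4 naive libraries held 6, 14 and 21 of their reads in all.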
